A study of Mus musculus with 20 samples.

Results

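The 10 genes described here carry out or govern the storage, import and export of cellular iron: the ferritin genes Fth1 and Ftl1, the transporters Tfrc, Slc11a1, Slc11a2 and Slc40a1, the ferroxidase gene Cp, the hormone gene Hamp and the regulators Ireb2 and Ncoa4. They were taken by gene symbol from a table of 33243 genes, and all 10 were among the 16632 genes tested, Hamp through counts in a single group. They were measured by bulk RNA-seq in macrophages sorted from cranial dura mater, the dural subset of CNS-associated macrophages (dCAMs).

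The mice carried Ccr2creERT2/+ R26tdT/tdT, an allele pair in which tamoxifen switches on the red protein tdTomato (tdT) in cells that express Ccr2 at that moment. Every mouse, controls included, had been given BLZ945, a CSF1R inhibitor that depletes macrophages, at 200 mg/kg for 7 days, and tamoxifen at 2 mg per day on the final gavage day and again 2 and 4 days afterwards. At 8 weeks after depletion 5 mice received lipopolysaccharide (LPS) at 2.5 mg/kg and 5 mice PBS (CTL), and dura was taken 12 h later. Cells with the surface profile CD45int CD11b+ CD206int-high were sorted from each mouse into a tdT+ and a tdT− library, giving 20 libraries in 4 groups of 5. The CTL mice have the numbers 174, 175, 177, 178 and 179 and the LPS mice 54, 56, 59, 60 and 61. The tdT label reports Ccr2 expression at the time of tamoxifen, so that tdT− cells may also include progeny of cells that escaped recombination. They may also include cells that arrived after tamoxifen, since the paper reports ongoing exchange of dCAMs by hematopoietic stem cell progeny in control animals. No group without BLZ945 was analysed here.

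Macrophages recycle iron from engulfed cells. Ferritin, a shell of heavy and light chains, stores it, and the heavy chain carries the ferroxidase activity. Transferrin receptor brings in iron bound to transferrin, DMT1 (Slc11a2) and NRAMP1 (Slc11a1) carry it out of endosomes and phagosomes, and ferroportin (Slc40a1), the exporter, is degraded when the hormone hepcidin (Hamp) binds it. The RNA-binding proteins IRP1 and IRP2 (Ireb2) grip a hairpin, the iron-responsive element (IRE), when iron is scarce. An IRE in the 5′ UTR then holds back translation, whereas IREs in the 3′ UTR protect an mRNA from decay.

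The hairpins are shown because they are where the iron-regulatory proteins bind. Transcripts of protein-coding genes in GENCODE M21 (GRCm38) were searched on the sense strand for a C, a 5-base arm, the 6-base loop CAGTGN and a 5-base arm that pairs with the first, G-T pairs allowed. This pattern was found in 4 of the 10 members and in 294 of 21877 protein-coding genes (1.34%). The sequences are given 5′ to 3′ in transcript sense, with the loop in capitals.
Fth1, 5′ UTR, chr19:9982732-9982760, plus strand: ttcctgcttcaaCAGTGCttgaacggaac
Ftl1, 5′ UTR, chr7:45459779-45459807, minus strand: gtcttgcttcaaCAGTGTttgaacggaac
Slc40a1, 5′ UTR, chr1:45925465-45925493, minus strand: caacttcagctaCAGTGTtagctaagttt
Tfrc, 3′ UTR, chr16:32631219-32631247, plus strand: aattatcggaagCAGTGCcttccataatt
Tfrc, 3′ UTR, chr16:32631598-32631626, plus strand: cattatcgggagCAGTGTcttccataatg
Tfrc, 3′ UTR, chr16:32631663-32631691, plus strand: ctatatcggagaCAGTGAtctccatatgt
Tfrc, 3′ UTR, chr16:32631710-32631738, plus strand: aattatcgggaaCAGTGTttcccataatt
Fth1, Ftl1 and Slc40a1 each held 1 match ahead of the coding sequence and Tfrc held 4 behind it. These letters were not found in the other members, which says nothing about elements of another form.

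Library totals ranged from 6017650 to 18925908 counts, and all LPS libraries were deeper than all tdT− CTL libraries. Genes with at least 10 counts numbered 6671 to 9365 in the tdT− CTL libraries against 10024 to 11032 for tdT+ CTL, 10930 to 11812 for tdT− LPS and 11250 to 11987 for tdT+ LPS. The summed level of 12 macrophage markers was at least 12194 CPM (counts of a gene per 1e6 counts of its library, scaled by TMM) in every library, with all 12 detected in each group. In CTL mice dendritic markers summed to 767 to 3345 CPM in tdT− and 222 to 401 CPM in tdT+ libraries. Monocyte markers summed to 548 to 1095 and 160 to 467 CPM, and neither list overlapped. Of the dendritic markers, Siglech (55.7 and 261 CPM) and Clec9a (0 and 0.623 CPM) averaged higher in tdT+ CTL libraries, as did the neutrophil and T and NK cell sums. Under LPS the dendritic sums were 277 to 642 and 14.2 to 71.3 CPM. Single tdT− CTL libraries also stood out. Erythroid markers summed to 766 CPM in mouse 178 and fibroblast markers to 4668 CPM in mouse 179. Mouse 174 had the highest dendritic sum. In bulk libraries, fewer cells of a type and less RNA per cell cannot be told apart.

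The first question was how LPS changed the members in each population. Hamp entered the test only through its counts in the tdT− LPS libraries and is described apart, without a test. Of the other 9 members, 3 rose (Fth1, Slc11a1 and Cp) and 1 fell (Ftl1) in tdT− dCAMs. Of all genes tested, 7.20% rose and 4.27% fell in that contrast. In tdT+ dCAMs 3 rose (Fth1, Slc11a1 and Cp) and 3 fell (Ftl1, Slc40a1 and Ncoa4), against 3.37% and 2.52% of all genes tested. A gene is said to rise or fall where edgeR's quasi-likelihood test gave a Benjamini-Hochberg adjusted p under 0.05 over all genes tested and the log2 fold change was beyond 1 in size. The CTL and LPS libraries did not overlap for 5 members in tdT− dCAMs and 6 in tdT+ dCAMs, beside 12.6% and 17.8% of all genes. The median log2 fold change of the 9 members was 1.25 in tdT− and 0.49 in tdT+ dCAMs, against 0.02 and 0.01 over all genes tested. Marker sums moved with LPS as well. The summed 12 macrophage markers went from a median of 22502 to 13007 CPM in tdT− libraries and from 30141 to 16698 CPM in tdT+ libraries, the latter without overlap. Single markers of that list went the other way. Itgam averaged 148 and 942 CPM in tdT− and 190 and 1062 CPM in tdT+ CTL and LPS libraries. Fcgr1 averaged 221 and 646 CPM and 283 and 726 CPM. Pf4 was also higher under LPS in both populations, and Ptprc and Cd163 in tdT− libraries only. The summed 10 neutrophil markers went from a median of 231 to 1019 CPM and from 640 to 967 CPM, while the defining marker Ly6g averaged at most 0.309 CPM in any group. In tdT+ CTL libraries this sum was mostly Mmp9 (503 CPM on average) and Csf3r (107 CPM). Mmp9 averaged 220 CPM in tdT+ LPS libraries, so that the sums were made up of different genes. The part of these shifts in the LPS changes of the members was not tested.

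**Figure D1:**
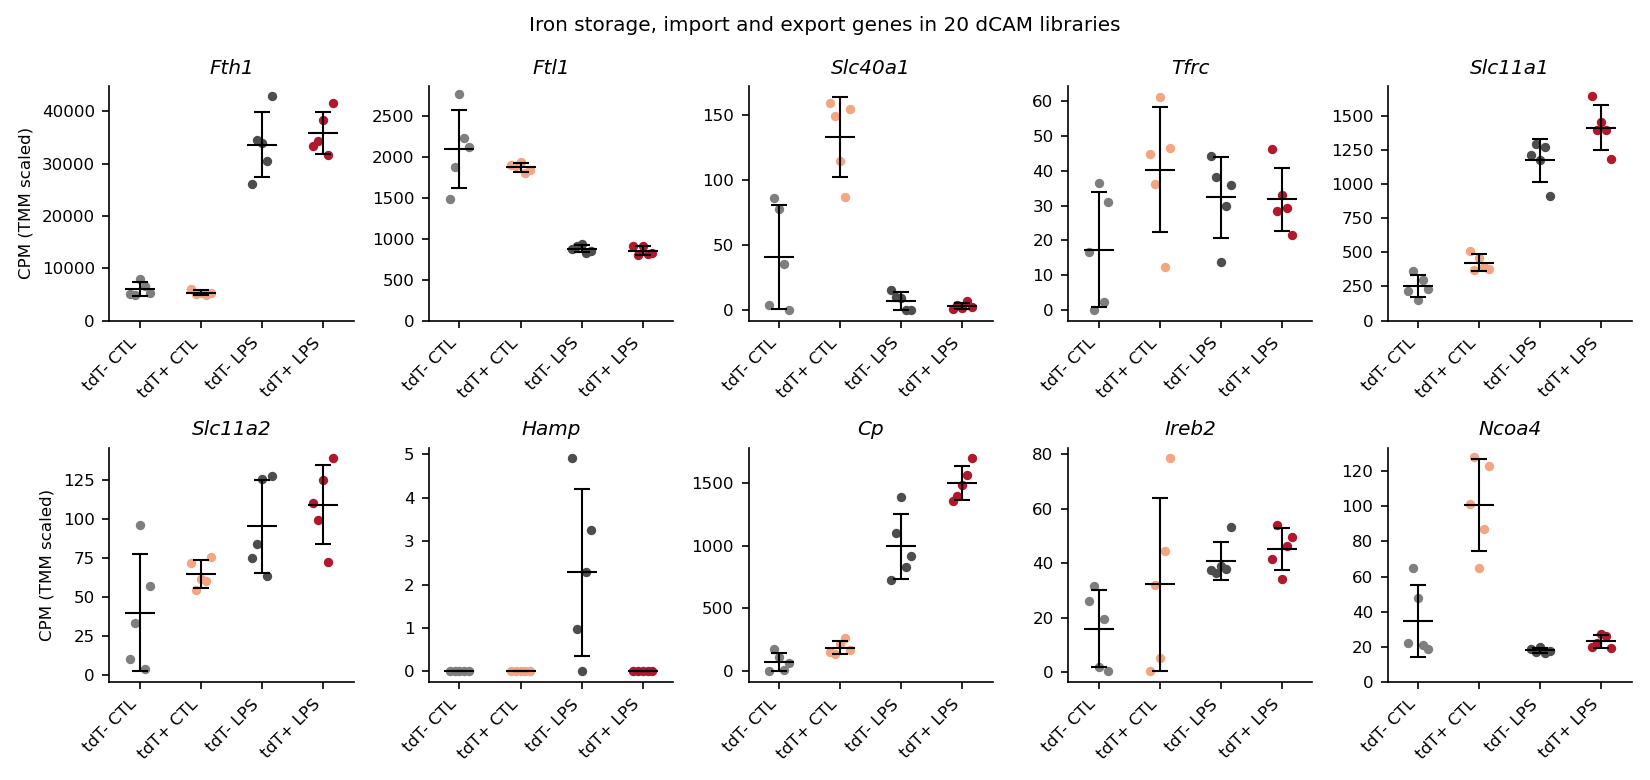
Levels of the 10 members in CPM (y axes, linear and set per gene) in the 20 libraries, by group on the x axis; points are libraries and black bars the mean ± SD of 5. Fth1 rose from means of 5955 and 5303 CPM to 33588 and 35850 CPM under LPS, whereas Ftl1 fell from 2099 and 1874 to 879 and 855 CPM.

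The ferritin chains moved in opposite directions. Fth1, the heavy chain (ENSMUSG00000024661.7, chromosome 19, 9980598 to 9985098), stood at 5000, 4852, 7996, 6588 and 5340 CPM in the tdT− CTL libraries of mice 174, 175, 177, 178 and 179. Under LPS it stood at 26100, 34451, 33924, 30533 and 42931 CPM in the tdT− libraries of mice 54, 56, 59, 60 and 61. The lowest LPS library was thus above the highest CTL library, and the log2 fold change was 2.50 ± 0.14 (SE, n = 5 per group, edgeR adjusted p = 2.43e-10). In tdT+ dCAMs Fth1 ranged from 4825 to 6077 CPM in CTL and from 31594 to 41629 CPM in LPS mice, again without overlap (2.76 ± 0.14, adjusted p = 5.22e-11). Fth1 alone took 0.588% ± 0.104 of all counts in tdT− CTL libraries and 3.33% ± 0.501 in tdT− LPS libraries (SD, n = 5). It ranked 9th to 17th by count in the former and 1st or 2nd in the latter. For tdT+ libraries the share was 0.550% ± 0.0460 and 3.48% ± 0.300, and the gene ranked 15th to 19th without and 1st with LPS.

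Ftl1, the light chain (ENSMUSG00000050708.16, chromosome 7, 45457944 to 45459884), carries its hairpin in the 5′ UTR, as Fth1 does. It stood at 1490, 1873, 2772, 2235 and 2123 CPM in tdT− CTL and at 871, 918, 932, 831 and 845 CPM in tdT− LPS libraries, in the same order of mice. In tdT+ dCAMs the range was 1803 to 1941 CPM in CTL and 808 to 912 CPM in LPS mice. Every LPS library lay under every CTL library in both populations. The log2 fold change was -1.25 ± 0.13 in tdT− (edgeR adjusted p = 8.19e-07) and -1.13 ± 0.13 in tdT+ dCAMs (adjusted p = 2.62e-06). Its coefficient of variation was 22.5% in tdT− CTL libraries and 2.89% to 6.16% in the other groups.

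Within a library, the ratio of Fth1 to Ftl1 counts needs no scaling between libraries. In CTL mice it was 2.86 ± 0.334 for tdT− and 2.83 ± 0.216 for tdT+ libraries, and in LPS mice 38.3 ± 7.62 and 42.0 ± 5.08 (SD, n = 5). The 10 CTL libraries lay between 2.52 and 3.36 and the 10 LPS libraries between 30.0 and 50.8. Per kb of the principal transcript the mean ratio was 1.85 and 1.83 in CTL and 24.8 and 27.2 in LPS libraries.

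**Figure D2:**
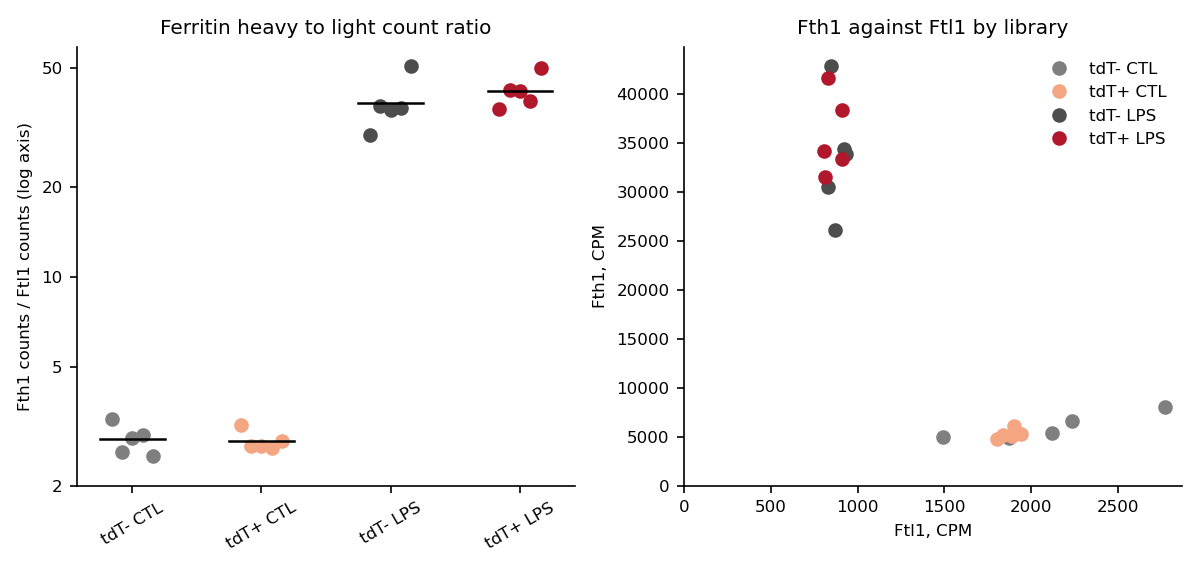
Left, ratio of Fth1 to Ftl1 counts per library (log axis) by group, with a line at the mean; right, Fth1 against Ftl1 in CPM, 1 point per library. All CTL libraries have ratios from 2.52 to 3.36 and all LPS libraries from 30.0 to 50.8, and the tdT+ and tdT− points lie together within a treatment.

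Ferritin has processed copies in the mouse genome whose reads can be confused with those of the parent. Of 11 such genes looked for, 7 were in the table, and 6 of these (the Fthl17 genes a to f) had no count. Ftl1-ps2 held at most 0.916% as many counts as Ftl1 in a tdT− CTL library and less in the other groups. Its level fell from 10.4 to 2.54 CPM in tdT− dCAMs (-2.04 ± 0.64, edgeR adjusted p = 0.0401), and in tdT+ dCAMs it stood at 8.19 and 2.26 CPM (-1.85 ± 0.64, adjusted p = 0.0972). With its counts added to Ftl1 the 4 mean ratios became 2.84, 2.82, 38.2 and 41.9.

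Among the importers, Slc11a1 rose and Tfrc and Slc11a2 did not pass the test. Slc11a1 (ENSMUSG00000026177.11, chromosome 1, 74375195 to 74386062) encodes NRAMP1, a metal transporter of the phagosome membrane of macrophages. It stood at 217, 365, 151, 299 and 235 CPM in tdT− CTL and at 1215, 1298, 1175, 1273 and 911 CPM in tdT− LPS libraries. The tdT+ libraries gave 374 to 513 CPM in CTL and 1182 to 1645 CPM in LPS mice. Neither pair of groups overlapped. The log2 fold change was 2.21 ± 0.20 in tdT− (edgeR adjusted p = 1.24e-07) and 1.74 ± 0.19 in tdT+ dCAMs (adjusted p = 2.39e-06).

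Tfrc (ENSMUSG00000022797.16, chromosome 16, 32608920 to 32632794), the transferrin receptor, which held the 4 matches to the hairpin pattern in its 3′ UTR, stood at 16.5, 0, 36.6, 2.15 and 31.1 CPM in tdT− CTL libraries. It stood at 44.1, 38.4, 13.7, 30.0 and 35.8 CPM in tdT− LPS libraries. The groups overlapped, and the log2 fold change of 0.91 had a 95% interval from -0.90 to 2.72 (edgeR adjusted p = 0.516). In tdT+ dCAMs the ranges were 12.5 to 61.3 CPM and 21.6 to 46.3 CPM, with a log2 fold change of -0.34 and an interval from -2.14 to 1.45 (adjusted p = 0.940). These intervals leave room for changes past 2-fold either way in tdT+ dCAMs.

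Slc11a2 (ENSMUSG00000023030.16, chromosome 15, 100387898 to 100425072) encodes DMT1, which carries ferrous iron out of endosomes. It ranged from 3.61 to 96.1 CPM in tdT− CTL libraries and from 63.6 to 127 CPM in tdT− LPS libraries, which overlapped through mice 177 and 54, 56 and 60. The log2 fold change was 1.25 with an interval from 0.10 to 2.39 (edgeR adjusted p = 0.135). With mouse as a replicate block it was 2.00 (limma-voom adjusted p = 0.0177), and without mouse 177 it was 1.87 (edgeR adjusted p = 0.0313), so that the call changed with either; over 22 alternatives the adjusted p ran from 0.0177 to 0.341. In tdT+ dCAMs the ranges were 54.7 to 76.0 CPM in CTL and 72.7 to 139 CPM in LPS mice (0.75, interval -0.38 to 1.89, adjusted p = 0.527).

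On the export side, ferroportin (Slc40a1, ENSMUSG00000025993.10, chromosome 1, 45908068 to 45926523) fell in tdT+ dCAMs. In tdT+ CTL libraries it stood at 159, 150, 115, 87.2 and 155 CPM and in tdT+ LPS libraries at 0.981, 3.88, 1.67, 6.57 and 2.55 CPM. The highest LPS value was below the lowest CTL value, and the log2 fold change was -5.41 ± 1.46 (edgeR adjusted p = 0.0265). The call was lost without mouse 54, 56 or 59 (adjusted p up to 0.0930), with log2 fold changes from -5.87 to -5.19 over the 10 mice left out in turn, and held in 19 of 22 alternatives (adjusted p from 6.03e-06 to 0.0930). In tdT− dCAMs the CTL libraries stood at 3.95, 86.3, 77.8, 35.2 and 0 CPM and the LPS libraries at 15.4, 9.93, 9.28, 0 and 0 CPM. The groups overlapped through the low values of mice 174 and 179, and the log2 fold change of -2.55 ± 1.28 did not pass (adjusted p = 0.184). Without those 2 libraries, a choice made after the values were seen, it was -3.28 (edgeR adjusted p = 0.0354). This was the 1 of 22 alternatives in which it passed (up to 0.437 in the others). The 2 libraries had the fewest genes with at least 10 counts, but also the lowest levels of Slc40a1 in their group. Leaving them out was thus bound to deepen the fall and does not test it.

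Hamp (ENSMUSG00000050440.8, chromosome 7, 30942368 to 30944032), the gene of hepcidin, had no count in any CTL library or in any tdT+ LPS library. Counts were found in 4 of the 5 tdT− LPS libraries, 70 in mouse 54, 13 in mouse 56, 28 in mouse 60 and 40 in mouse 61, and 0 in mouse 59. The tdT− LPS libraries averaged 2.29 ± 1.92 CPM (SD, n = 5), with that of mouse 59 at the floor of 3 counts or fewer. Since the gene reached the low-count minimum through these libraries alone, no test of it is given. Its close relative Hamp2 had 0 counts throughout. A noncoding gene overlaps Hamp on the opposite strand and the library kit did not mark strand, so that reads of these genes cannot be told apart.

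Cp (ENSMUSG00000003617.16, chromosome 3, 19957054 to 20009145) encodes ceruloplasmin, a copper ferroxidase that oxidises iron leaving the cell through ferroportin. It stood at 0.152, 177, 111, 6.66 and 67.5 CPM in tdT− CTL and at 728, 1102, 1391, 829 and 919 CPM in tdT− LPS libraries. In tdT+ dCAMs it ranged from 136 to 262 CPM in CTL and from 1359 to 1697 CPM in LPS mice. The groups were apart in both populations. The log2 fold change was 3.78 ± 0.82 in tdT− (edgeR adjusted p = 0.00353) and 2.99 ± 0.79 in tdT+ dCAMs (adjusted p = 0.0226). Fitting the 10 tdT− libraries alone gave 3.77 with an adjusted p of 0.0673, the 1 of 22 alternatives that lost the call (from 2.81e-05 in the others). For tdT+ libraries the call was lost without any 1 of mice 54, 59, 60, 61, 175, 177 and 179 and held in 15 of 22 alternatives (edgeR adjusted p up to 0.0586). Hps3, which overlaps Cp on the other strand, averaged 123 and 133 CPM in the CTL groups and 45.9 and 48.9 CPM in the LPS groups.

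**Figure D3:**
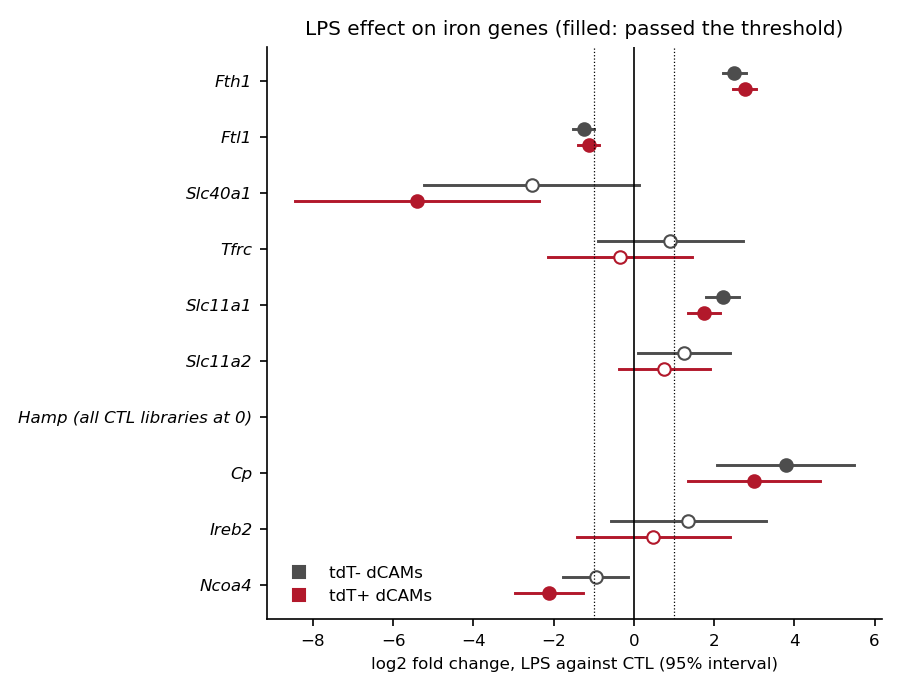
Log2 fold change of LPS against CTL (x axis) for each member (y axis) in tdT− (grey) and tdT+ (red) dCAMs; lines are 95% intervals, filled points passed the threshold, dotted lines mark a log2 fold change of 1 in size, and no fold is drawn for Hamp. Fth1, Slc11a1 and Cp lie to the right and Ftl1 to the left in both populations.

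Of the regulators, Ncoa4 fell in tdT+ dCAMs and Ireb2 passed in neither population. Ncoa4 (ENSMUSG00000056234.15, chromosome 14, 32159865 to 32179855) encodes the receptor that carries ferritin to the lysosome for breakdown. In tdT+ dCAMs it stood at 101, 128, 64.7, 87.3 and 123 CPM in CTL and at 19.9, 22.3, 27.6, 26.3 and 19.5 CPM in LPS libraries, without overlap (-2.12 ± 0.40, edgeR adjusted p = 0.00146). In tdT− dCAMs it stood at 22.0, 65.0, 47.8, 21.3 and 18.6 CPM in CTL and between 16.7 and 19.7 CPM in LPS libraries, and the log2 fold change of -0.96 ± 0.39 did not pass (adjusted p = 0.111). It was -1.33 without the tdT− CTL libraries of mice 174 and 179 (edgeR adjusted p = 0.00763). Without those of mice 178 and 179, the pair with the most erythroid marker RNA, it was -1.32 (adjusted p = 0.0114), and in the other alternatives it did not pass (adjusted p up to 0.411). Both pairs were chosen after the values were seen and hold low CTL levels of Ncoa4. Leaving them out was thus bound to deepen the fall and does not test it.

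Ireb2 (ENSMUSG00000032293.8, chromosome 9, 54863789 to 54912530), the gene of IRP2, stood at 26.1, 31.6, 1.84, 19.6 and 0.523 CPM in tdT− CTL libraries and between 36.6 and 53.4 CPM in tdT− LPS libraries. All LPS libraries were above all CTL libraries, yet the log2 fold change of 1.35 had an interval from -0.58 to 3.29 (edgeR adjusted p = 0.342). In tdT+ dCAMs the CTL libraries spread from 0.325 to 78.6 CPM around LPS values of 34.4 to 54.2 CPM (0.49, interval -1.42 to 2.39, adjusted p = 0.896).

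The second question was whether the populations differed. In CTL mice 1 member, Ncoa4, was higher in tdT+ dCAMs and 0 were lower, while 3.01% of all genes tested were higher and 1.27% lower. Ncoa4 averaged 101 ± 26.1 CPM in tdT+ and 34.9 ± 20.5 CPM in tdT− CTL libraries, with a log2 difference of 1.53 ± 0.40 (edgeR adjusted p = 0.0293), and was higher in the tdT+ library of 5 of 5 mice. With mouse as a replicate block the difference was 1.68 and missed the threshold (edgeR adjusted p = 0.0766), which left 0 members called. The call was also lost without any 1 of 8 of the mice (adjusted p up to 0.0724), mice 175 and 177 being the exceptions. It held in 9 of 22 alternatives, with adjusted p from 4.33e-05 to 0.309. The difference was 1.17 (edgeR adjusted p = 0.0531) without the tdT− CTL libraries of mice 178 and 179, which were low in Ncoa4 and were chosen after the values were seen.

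Slc11a1 was higher in the tdT+ library of 5 of 5 CTL mice, with means of 423 ± 61.2 and 254 ± 81.8 CPM and no overlap. Its log2 difference of 0.74 ± 0.19 was under the fold threshold (edgeR adjusted p = 0.0260), and it was 1.07 without mouse 175 (adjusted p = 0.000816). Slc40a1 averaged 133 ± 31.1 CPM in tdT+ and 40.7 ± 40.3 CPM in tdT− CTL libraries, was higher in 5 of 5 mice and did not overlap, but the difference of 1.71 had an interval from -0.88 to 4.30 (adjusted p = 0.451). Tfrc was higher in the tdT+ library of 5 of 5 mice (1.22, interval -0.60 to 3.04, adjusted p = 0.443), and Cp, Slc11a2 and Ireb2 of 4 of 5. Both ferritin genes differed little, by -0.17 for Fth1 (interval -0.44 to 0.11) and -0.16 for Ftl1 (interval -0.42 to 0.10). The median difference of the 9 members other than Hamp was 1.02, against -0.01 over all genes tested. How many of all genes were higher in 5 of 5 mice, or did not overlap between populations, was not counted. These counts of mice and overlaps are therefore descriptions without a background.

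The lowest tdT− CTL library was not the same for each gene. It was mouse 179 for Slc40a1, Ireb2 and Ncoa4, mouse 175 for Tfrc, mouse 178 for Slc11a2, mouse 174 for Cp and Ftl1 and mouse 177 for Slc11a1. The tdT− CTL group, whose libraries held the fewest genes with at least 10 counts, had coefficients of variation of 99.1% for Slc40a1, 95.6% for Tfrc, 94.1% for Slc11a2 and 102% for Cp. In tdT+ CTL libraries these were 23.4%, 44.7%, 13.6% and 27.4%, whereas Ireb2 was about as variable in both (88.6% and 98.6%). The part of the lower gene number and of the markers of other cells in the differences between populations was not tested.

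**Figure D4:**
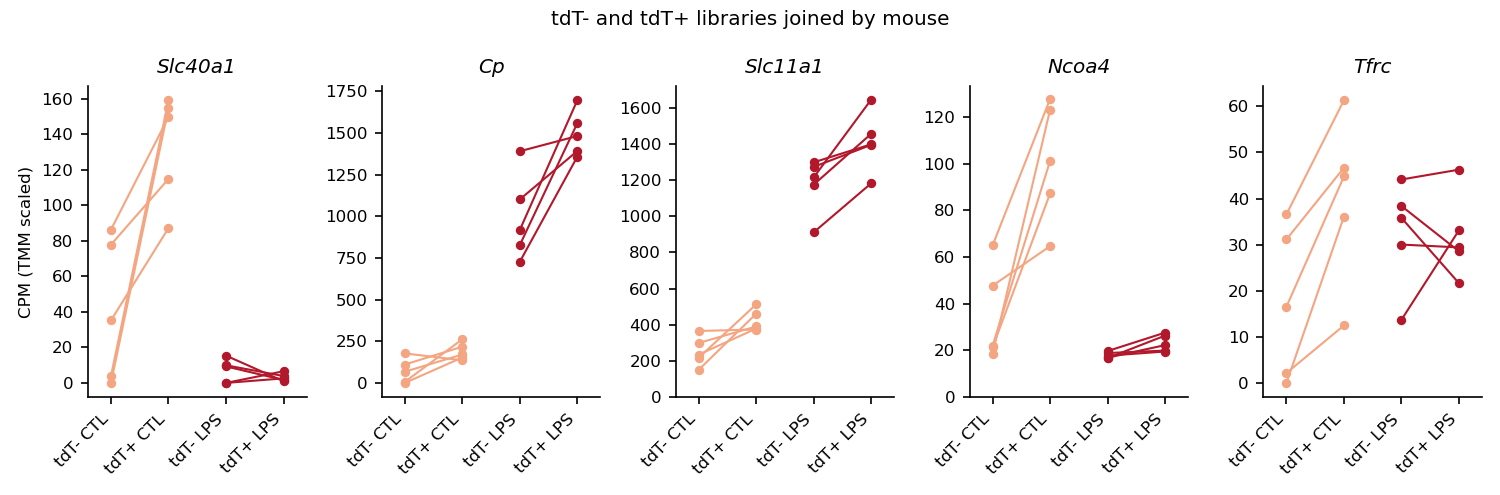
Levels in CPM (y axes) of 5 members in the tdT− and tdT+ library of each mouse, joined by a line (CTL pale, LPS dark). In CTL mice Slc40a1, Slc11a1, Ncoa4 and Tfrc were higher in the tdT+ library of 5 of 5 mice, and Cp in 4 of 5. The share of all genes with this order was not counted.

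In LPS mice 0 of the 9 members other than Hamp passed between populations by edgeR, where 0.00% of all genes were higher and 0.0301% lower in tdT+ dCAMs. At an unadjusted p under 0.05 there were 0 of these 9. DESeq2 and limma-voom with quality weights also called 0 of them. For Cp the adjusted p went as low as 0.0103 over 22 alternatives (edgeR, DESeq2 or limma-voom fits). Cp was still not called there, as its log2 difference was not beyond 1 in size. Slc11a1, Cp and Ncoa4 were each higher in the tdT+ library of 5 of 5 LPS mice, with log2 differences of 0.27 (interval -0.12 to 0.66), 0.59 (interval -0.94 to 2.13) and 0.36 (interval -0.45 to 1.17). The share of all genes with this order in LPS mice was not counted. The interval for Fth1 ran from -0.18 to 0.37 and that for Ftl1 from -0.30 to 0.22, the narrowest of the members.

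The LPS effects themselves were compared between populations by the interaction, tdT+ minus tdT−. By edgeR 0 of the 9 members other than Hamp passed, with 1.17% of all genes called negative and 0.0902% positive. DESeq2 and limma-voom called 0 of them as well. Ncoa4 was the 1 member with an unadjusted p under 0.05. Its difference was -1.17 ± 0.55 (edgeR adjusted p = 0.371). The difference was -2.85 for Slc40a1 (interval -6.50 to 0.79), -0.47 for Slc11a1 (interval -1.02 to 0.08) and -0.78 for Cp (interval -2.95 to 1.38). For Fth1 and Ftl1 it was 0.26 (interval -0.13 to 0.65) and 0.12 (interval -0.25 to 0.49). That Slc40a1 and Ncoa4 passed in tdT+ and not in tdT− dCAMs therefore does not show that their LPS effects differed.

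Levels can be set against one another per kb of transcript. In tdT+ CTL libraries the order was Fth1 at 3550 CPM per kb, Ftl1 at 1936, Slc11a1 at 183, Cp at 46.7, Slc40a1 at 39.5, Ncoa4 at 24.8, Slc11a2 at 21.5, Tfrc at 8.24 and Ireb2 at 5.58, with Hamp at 0. Cp and Slc40a1 were neighbours within their spread, as were Ncoa4 and Slc11a2, and Tfrc and Ireb2. In tdT+ LPS libraries Slc40a1 had moved to the 9th place at 0.929 CPM per kb and Cp stood at 372 and Slc11a1 at 611 CPM per kb. Fth1 stood at 23996 and Ftl1 at 883 CPM per kb there. In tdT− LPS libraries the order began the same way, with Fth1 at 22482, Ftl1 at 909, Slc11a1 at 507 and Cp at 247 CPM per kb, and ended with Slc40a1 at 2.05 CPM per kb.

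The genes whose log2 CPM followed a member most closely over the 20 libraries were looked up among the 5823 genes that averaged 4 or more on that scale. For Fth1 these were Saa3, Pkm and Ifitm2 (Pearson r = 0.989, 0.987 and 0.986), each with higher means in the LPS than in the CTL groups. For Slc40a1 they were Tfeb, Wwp1 and Atp6v0a1 (r = 0.909, 0.907 and 0.866). Wwp1, a ubiquitin ligase gene, averaged 138 and 369 CPM in tdT− and tdT+ CTL and 36.2 and 53.6 CPM in LPS libraries. For Tfrc they were Ccz1, Dmtf1 and Atg2a (r = 0.939, 0.920 and 0.875). The 20 points share treatment, mouse and depth, and these r are descriptions.

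The wider iron pathway was read from 4 lists. Of the partners of import and release, 17 were tested, of which 5 rose and 2 fell under LPS in tdT− and 4 rose and 0 fell in tdT+ dCAMs. Over all genes tested, 7.20% rose and 4.27% fell in tdT− and 3.37% rose and 2.52% fell in tdT+ dCAMs, with medians of 0.02 and 0.01. Lcn2, which sequesters bacterial siderophores that hold iron, rose from 0.603 to 5791 CPM in tdT− (log2 fold change 13.18 ± 1.08, edgeR adjusted p = 3.85e-08) and from 0.660 to 6643 CPM in tdT+ dCAMs (13.32 ± 1.08, adjusted p = 2.89e-08). Hp, whose product haptoglobin captures free haemoglobin, rose from 1.02 to 984 CPM in tdT− (9.84 ± 1.34, adjusted p = 3.42e-05) and from 0.613 to 737 CPM in tdT+ dCAMs (10.03 ± 1.35, adjusted p = 3.17e-05). Lcn2 and Hp are abundant in neutrophils. Of the neutrophil markers, S100a8 went from 8.07 to 291 CPM and from 2.09 to 309 CPM. Mmp8 went from 0.0491 to 98.0 CPM and from 0.0802 to 103 CPM. Mmp9 went down, from 178 to 91.5 CPM and from 503 to 220 CPM, as did S100a9 and Ngp in both populations. Camp was lower under LPS in tdT− and Retnlg in tdT+ dCAMs. S100a9 averaged at most 4.33 CPM and Ly6g at most 0.309 CPM in any group. The part of neutrophils in the changes of Lcn2 and Hp was not tested. Slc39a14, the importer ZIP14 for iron not bound to transferrin, rose from 2.03 to 217 CPM and from 11.1 to 270 CPM. The other genes that rose, named after their values were seen, were the metalloreductase gene Steap4 (6.08 and 5.44 on the log2 scale) and, in tdT− dCAMs, Slc39a8 (from 0.0737 to 5.67 CPM). Pcbp2, an iron chaperone, fell from 86.6 to 31.1 CPM in tdT− dCAMs (-1.48 ± 0.43, edgeR adjusted p = 0.0277), and Tfr2 fell there from 9.22 ± 18.9 to 0.116 CPM (adjusted p = 0.0468), both with overlapping groups. Over the list, log2 fold changes had medians of 0.42 and -0.05.

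Of 20 genes of iron sensing and hepcidin regulation, 5 rose and 1 fell in tdT− and 4 rose and 1 fell in tdT+ dCAMs, with medians of 0.23 and 0.59, beside all-gene shares of 7.20% and 4.27% in tdT− and 3.37% and 2.52% in tdT+ dCAMs and all-gene medians of 0.02 and 0.01. Fbxl5, which targets IRP2 for degradation when iron is plentiful, rose from 92.1 to 421 CPM (2.19 ± 0.45, edgeR adjusted p = 0.00225) and from 135 to 481 CPM (1.83 ± 0.44, adjusted p = 0.0121). Stat3 and the receptor genes Il6ra and Il6st lie on the interleukin-6 route to hepcidin. Stat3 rose by 1.51 and 1.34, Il6st by 1.94 and 2.75 and, in tdT− dCAMs, Il6ra by 1.29 on the log2 scale. Hif1a, named after its values were seen, rose by 3.96 and 3.88. Hfe, the haemochromatosis gene, was the 1 that fell, from 322 to 81.9 CPM in tdT− (-1.97 ± 0.27, edgeR adjusted p = 4.02e-05) and from 524 to 89.3 CPM in tdT+ dCAMs (-2.55 ± 0.28, adjusted p = 1.99e-06).

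Of 20 genes of heme handling, 0 rose and 2 fell in tdT− and 0 rose and 1 fell in tdT+ dCAMs, with medians of -0.15 and -0.42. Over all genes 4.27% fell in tdT− and 2.52% in tdT+ dCAMs, so that these counts lie near the background. Blvrb, a biliverdin reductase gene, fell from 222 to 45.1 CPM (-2.30 ± 0.32, edgeR adjusted p = 4.07e-05) and from 266 to 58.8 CPM (-2.18 ± 0.32, adjusted p = 7.94e-05). Fech, which inserts iron into heme, fell in tdT− dCAMs from 143 to 53.6 CPM (-1.42 ± 0.39, edgeR adjusted p = 0.0183), where the CTL libraries varied widely (SD 97.95 CPM) and the groups overlapped. Fech is also high in erythroid cells, and the erythroid markers summed to 766 and 416 CPM in the tdT− CTL libraries of mice 178 and 179 and to at most 35.2 CPM in tdT− LPS libraries. Their part in this change was not tested. Of 24 genes of mitochondrial iron and iron-sulfur clusters, 2 rose in tdT− (Iscu and Hspa9) and 1 in tdT+ dCAMs (Iscu), and 0 fell, near the 7.20% and 3.37% of all genes that rose. Iscu, the cluster scaffold, rose from 93.5 to 201 CPM (1.10 ± 0.22, adjusted p = 0.00145) and from 67.9 to 168 CPM (1.30 ± 0.22, adjusted p = 0.000335). Hspa9 rose by 1.80 ± 0.46 in tdT− dCAMs (edgeR adjusted p = 0.0127).

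**Figure D5:**
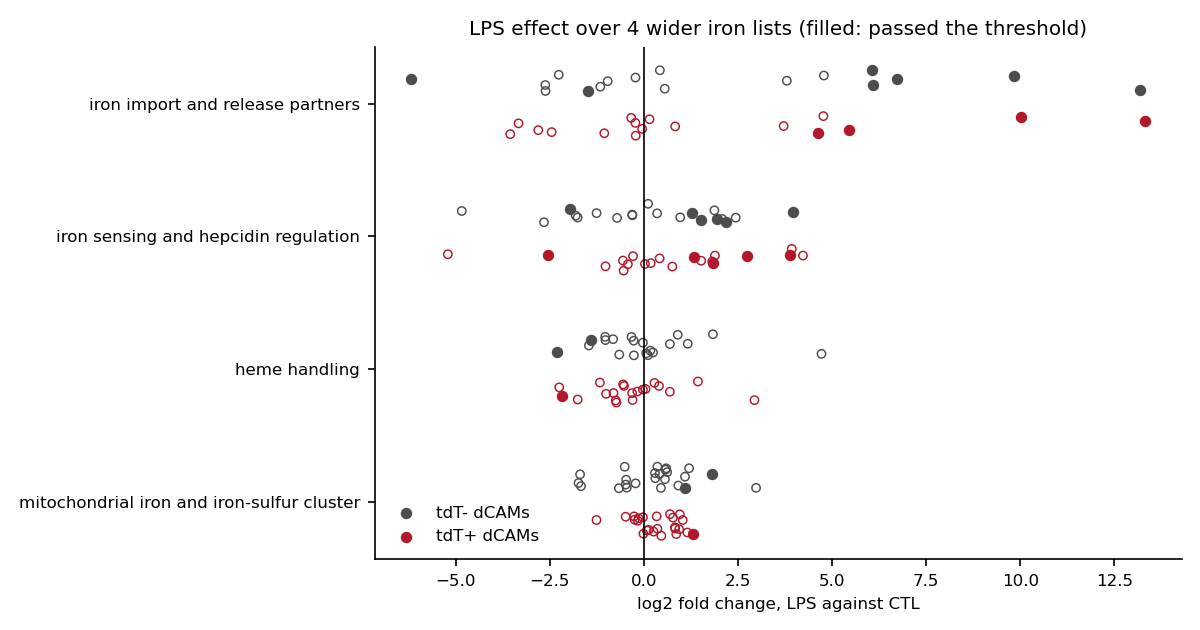
Log2 fold change of LPS against CTL (x axis) for each tested gene of 4 iron lists (y axis) in tdT− (grey, upper row) and tdT+ (red, lower row) dCAMs; filled points passed the threshold, and vertical scatter within a row has no meaning. Lcn2 (13.18 and 13.32) and Hp (9.84 and 10.03) lie farthest right, and no gene of heme handling passed on the right.

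When the CTL libraries of both populations were compared, 4 of the 17 genes of import and release passed, 2 higher and 2 lower in tdT+ dCAMs, beside 3.01% and 1.27% of all genes. Cd163, the receptor for haptoglobin bound to haemoglobin, averaged 434 CPM for tdT+ against 153 CPM for tdT− libraries (1.50 ± 0.38, edgeR adjusted p = 0.0237). Slc39a8, the importer ZIP8, averaged 7.90 ± 4.91 and 0.0737 ± 0.165 CPM (SD, n = 5), the latter a mean below the floor of 3 counts. Pcbp2 was lower in tdT+ dCAMs at 29.2 against 86.6 CPM (-1.57 ± 0.43, edgeR adjusted p = 0.0409). Tfr2 had no count in tdT+ and 9.22 ± 18.9 CPM in tdT− CTL libraries (SD, n = 5), a spread wider than its mean. Of the 20 genes of heme handling 1 passed, beside the same shares of all genes. This was Cpox, an enzyme of heme synthesis, higher in tdT+ dCAMs at 35.0 against 7.44 CPM (2.23 ± 0.62, edgeR adjusted p = 0.0415). In all of these genes but Cpox the libraries of the populations overlapped. Of the genes of iron sensing and hepcidin regulation 0 of 20 passed, and of those of mitochondrial iron and iron-sulfur clusters 0 of 24.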

How the data were processed

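The authors aligned reads of a low-input, PCR-amplified SMART-Seq library with STAR 2.7.11a and assigned them with featureCounts 2.0.6, per the labels, and deposited raw counts per gene, which were used as they stand. The methods name more than 1 genome build, so coordinates and transcript lengths come from GENCODE M21 (GRCm38) and only locate a gene. The kit holds no molecular identifiers, so that floors cover counting error only.

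Groups followed the labels. Genes with fewer than 10 counts over the 20 libraries were removed. The rest were scaled by TMM and fitted in 1 model over the 20 libraries with edgeR 4.0.16 in R 4.3.3 (quasi-likelihood test, 4 group means, 5 contrasts), with log2 fold changes given with their SE or 95% interval. Scripts were tested on simulated data. Both libraries of a mouse come from the same animal, which pairs them. Deviations from group means correlated across genes at r = 0.000914 to 0.0333 in CTL and 0.0471 to 0.119 in LPS mice. This r runs over all genes tested and does not give the pairing for single members. Mouse was not in the main model, and fits with it, with DESeq2 1.42.0, limma 3.58.1, other filters, scalings, depths and libraries left out are in the closing section.

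A per-kb level divides CPM by the length of the longest principal transcript. A library at 3 counts or fewer is at the floor. Named genes were the members, up to 3 genes per list, direction and population with the smallest p under LPS, all list genes called between populations, copies of ferritin in the table and the 3 genes most correlated with Fth1, Slc40a1 and Tfrc. Members and lists were chosen with earlier results of these data known.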

Additional observations from a re-analysis of the deposited data

Results flagged for a closer look

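In 2 of the 37 member and group sets tested, a library stood farther from the other 4 of its group than Dixon's critical value of 0.71 allows (chance flags about 1 in 20), both of mouse 61 in the tdT− LPS group. Slc11a1 was lowest there at 911 CPM, with the other libraries at 1175 to 1298 CPM. Ireb2 was highest there at 53.4 CPM, with the other libraries at 36.6 to 38.9 CPM. Without mouse 61 and its other library, the calls on both genes under LPS stood as before.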

How the results depend on the processing

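Fth1, Ftl1 and Slc11a1 under LPS kept their direction in both populations under every alternative run and passed in each, except that Fth1 missed the threshold in limma-voom with quality weights (2.46, adjusted p = 0.728, in tdT− and 2.78, adjusted p = 0.343, in tdT+ dCAMs), a fit in which the weights of Fth1 ran from 49.3 to 650300 between libraries. Counts here leave out Hamp, which entered the test through the tdT− LPS libraries alone. In tdT− dCAMs under LPS 3 members rose and 1 fell. With limma-voom quality weights 3 passed, with only the 10 libraries of the comparison 3, and 4 to 5 when 1 mouse was left out. In tdT+ dCAMs 6 passed, and 4 to 6 when 1 mouse was left out. Between populations in CTL mice 1 passed, but 0 with no low-count filter, with limma-voom quality weights, with only the 10 libraries, with mouse as a replicate block and without the tdT− CTL libraries of mice 178 and 179 (an alternative chosen after seeing the data, as was leaving out those of 174 and 179), and 0 to 2 when 1 mouse was left out. In LPS mice 0 passed in the main fit and 0 with limma-voom quality weights. Directions reversed only for values far from the threshold: between populations under LPS, Slc40a1 was 0.66 with limma-voom quality weights, and Tfrc was 0.0154 there, 0.0208 with mouse as a replicate block, 0.0826 after thinning to the smallest library and -0.237 to 0.122 when 1 mouse was left out. The difference of LPS effects for Ireb2 ran from -1.44 to 0.0847 when 1 mouse was left out. The block, which for the LPS contrasts was an estimated correlation of 0.0413, changed no call beyond Slc11a2 and Ncoa4. The causes of these changes were not tested. Hamp was removed by the filterByExpr filter, so that no value for it exists there. Depth and treatment went together, and 5 mice a group limit the intervals. The p-values of the main fit rest on the spread between libraries within groups, and both libraries of a mouse count there as independent.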
